A study of Mus musculus with 2 samples.

Results

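Neurotrophins and ligands of the GDNF family are secreted survival and growth factors of neurons, and their receptors were followed here in the embryonic mouse forebrain through 8 genes. The ligands were Bdnf, Ntf3 (neurotrophin-3) and Gdnf. The receptors were Ntrk2 (TrkB), Ntrk3 (TrkC), Ngfr (p75), the co-receptor Gfra1 and the kinase Ret. They were found by matching the gene identifiers of the deposited tables, with the version removed, to these symbols in GENCODE, and all 8 were found among 43346 mouse gene rows, of which 21473 were protein-coding. Total RNA longer than 200 bases came from forebrain of B6NCrl embryos at embryonic day 13.5, male and female embryos pooled, with 10 ng of RNA and added spike-in RNA per library. The 2 libraries form 1 group, with no treatment, genotype or second stage. By the labels they are biological replicates: the tissue samples differ but have 1 donor code in common.

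Trk receptors are tyrosine kinases that dimerise when a neurotrophin binds: BDNF acts through TrkB and neurotrophin-3 mainly through TrkC. The p75 receptor has no kinase, binds all neurotrophins and their unprocessed precursors, and works with Trk receptors or with sortilin. GDNF binds GFRα1, an anchored protein with no intracellular part, and the pair then engages Ret or, in cells without Ret, the adhesion molecule NCAM. Ntrk2 and Ntrk3 also encode truncated receptors that keep the ligand-binding part and the membrane span but lack the kinase, and in the developing forebrain BDNF and neurotrophin-3 are known for roles in neuron survival, migration and dendrite growth.

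The kinase-containing and truncated forms of Ntrk2 and Ntrk3 are told apart by the sequence that follows the last exon they share, which is printed here because the balance between these forms differed between the genes. The sequences come from the GENCODE M21 transcripts on mm10, written 5′ to 3′ along the transcript. Lower case marks the last 12 coding bases of the exon that both forms share and capitals mark bases of the next exon, which the other form lacks (single letters can still match), and the coordinates are those of the capitals.

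Truncated Ntrk2, ENSMUST00000109838, chr13:58932023-58932060, plus strand: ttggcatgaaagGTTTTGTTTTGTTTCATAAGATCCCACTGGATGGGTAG

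Full-length Ntrk2, ENSMUST00000079828, chr13:58985802-58985839, plus strand: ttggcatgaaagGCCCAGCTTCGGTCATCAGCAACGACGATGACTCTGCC

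Truncated Ntrk3, ENSMUST00000039438, chr7:78304367-78304426, minus strand: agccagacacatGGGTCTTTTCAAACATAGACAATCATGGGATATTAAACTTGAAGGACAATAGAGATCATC

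Full-length Ntrk3, ENSMUST00000039431, chr7:78260355-78260414, minus strand: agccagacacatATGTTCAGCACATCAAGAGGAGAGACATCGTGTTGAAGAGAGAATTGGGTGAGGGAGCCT

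The capitals of truncated Ntrk2 are the whole of its own coding end, 38 bases up to and including the stop codon, after 464 codons shared with the full-length form. The full-length form instead continued for 1073 coding bases, which encode the kinase. Truncated Ntrk3 shared 528 codons with full-length Ntrk3 and then had 254 coding bases of its own against 893, and the first 60 of each are shown. The diagram of coding forms draws these lengths to scale.

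**Figure D1:**
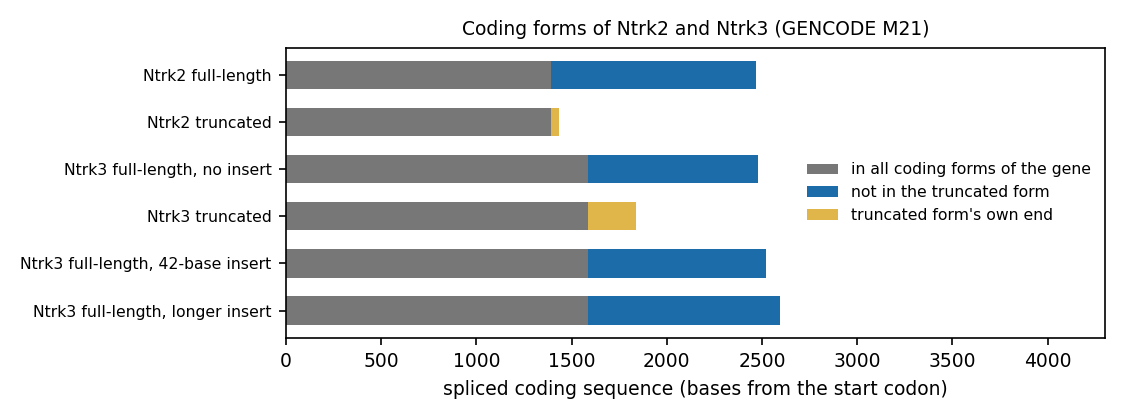
Spliced coding sequence of the Ntrk2 and Ntrk3 transcripts in GENCODE M21, in bases from the start codon, with grey for the part present in all coding forms of a gene, blue for the part absent from the truncated form and yellow for the truncated form's own end. The own end of truncated Ntrk2 is 38 bases and that of truncated Ntrk3 is 254 bases.

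The libraries held 35378462 estimated counts in replicate 1 and 36793284 in replicate 2, and their counts differed by more than sampling noise (a chi-square statistic of 10.9 per degree of freedom, with 14565 of them). Markers of the labelled tissue were present: 5 of 5 genes of the pallium and 5 of 5 of the subpallium stood at or above 10 TPM in both libraries, against 0 of 5 midbrain and hindbrain genes at or above 1 TPM. TPM values are shares of all transcripts in a library, corrected for length and scaled to a common total. With 1 group no test between conditions exists, so errors are the SD of 2 libraries, and intervals are 95% Poisson intervals of a count that cover counting error only. Tissue RNA cannot tell fewer cells of a type from less RNA per cell.

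The 3 ligands were low and the receptors, other than Ret, stood above them. The members at or above 1 TPM in both libraries numbered 5 of 8, all of the receptors except Ret plus Ntf3, beside 59.0% of protein-coding genes. At 10 TPM the count was 3 of 8, namely Ntrk2, Ntrk3 and Gfra1, beside 38.9% of protein-coding genes, so at both thresholds the share among the members was close to the background. Gfra1 reached 10 TPM only with its transcripts that lack a complete coding sequence, and its complete transcripts alone stood at 9.42 and 8.8 TPM. The share over all protein-coding genes was not computed in that way. In the order of levels, each member's lower library lay above the higher library of the next member, except between Ntrk3 and Gfra1, whose values overlapped.

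**Figure D2:**
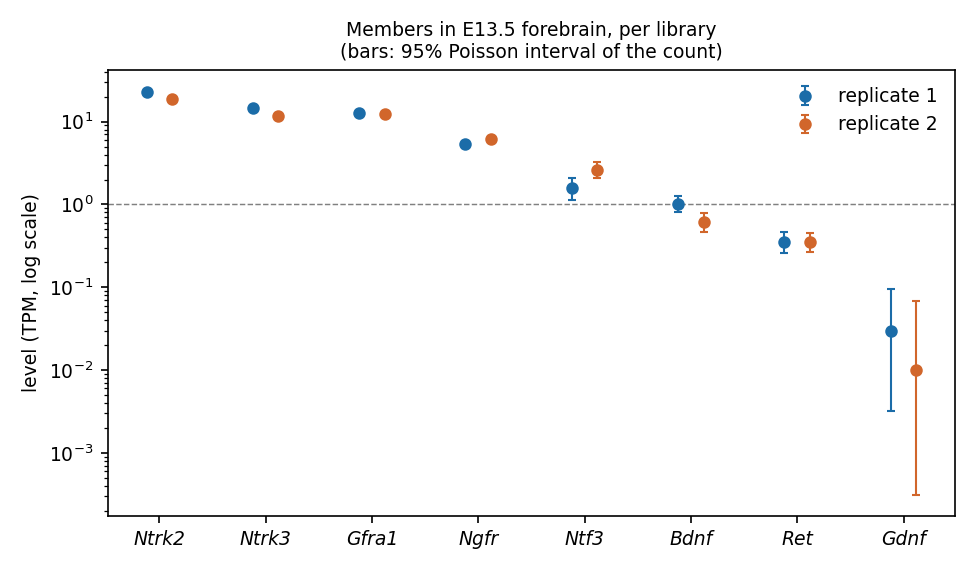
Level of each member in TPM (log axis) in replicate 1 (blue) and replicate 2 (orange), with the 95% Poisson interval of the count as bars (smaller than the point for the higher genes) and a dashed line at 1 TPM. Ntrk2 leads at 23.03 and 18.93 TPM, and Gdnf lies lowest at 0.03 and 0.01 TPM.

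Ntf3, which encodes the main ligand of TrkC (chromosome 6, 126101412 to 126166910, minus strand, mm10), had the highest level of the 3 ligands. It stood at 1.56 TPM in replicate 1 and 2.61 TPM in replicate 2, or 2.08 ± 0.742 TPM (SD, n = 2), from 46 and 83 counts. Replicate 2 was the higher library. Both of its annotated transcripts encode the whole protein: ENSMUST00000112244 held 46 and 71.13 counts and ENSMUST00000050484 held 0 and 11.87.

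Bdnf, the ligand of TrkB (chromosome 2, 109674700 to 109727007, plus strand), stood at 1.02 TPM in replicate 1 and 0.61 TPM in replicate 2, or 0.815 ± 0.29 TPM, from 88 and 56 counts. Here replicate 1 was the higher library. The levels of Bdnf and Ntf3 did not overlap across libraries, but in replicate 1 their counting intervals did, at 0.818 to 1.26 TPM for Bdnf and 1.14 to 2.08 TPM for Ntf3.

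Bdnf is known for many 5′ exons with promoters of their own, each spliced to a common coding exon. The 11 transcripts in the tables share 3626 bases and have between 81 and 640 other bases each, so few reads could tell them apart. ENSMUST00000111045 was the transcript with counts in both libraries, 33.14 and 27.11. ENSMUST00000111050 (41.98 and 0) and ENSMUST00000111051 (12.89 and 0) held counts in replicate 1, and ENSMUST00000111049 (0 and 28.89) held them in replicate 2. The split between 5′ exons thus differed between libraries for all but 1 of the transcripts with counts, and promoter use could not be resolved at this depth. Exons of Bdnf also share 896 bases with an antisense gene, Gm45346, which was not among the quantified genes. Reads of the shared bases cannot be told apart without strand, which the sources used here do not mention.

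Gdnf (chromosome 15, 7810846 to 7837575, plus strand) was at the limit of detection. It had 2 counts in replicate 1 and 1 count in replicate 2, or 0.03 and 0.01 TPM. The counting intervals were 0.242 to 7.22 counts in replicate 1 and 0.0253 to 5.57 counts in replicate 2. A count of 0 would allow up to 3 counts, which is 0.0396 and 0.0363 TPM. Both libraries lay below that limit, so the level of Gdnf was one that a count of 0 would also allow.

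Ntrk2, the BDNF receptor (chromosome 13, 58806569 to 59133970, plus strand), was the highest member at 23.03 TPM in replicate 1 and 18.93 TPM in replicate 2, with an SD of 2.9 TPM (n = 2), from 3860 and 3424 counts. Its level exceeded that of 71.1% of protein-coding genes. Ntrk3, the receptor of neurotrophin-3 (chromosome 7, 78175959 to 78738012, minus strand), stood at 14.69 and 11.81 TPM, or 13.2 ± 2.04 TPM, from 824 and 755 counts. In each library Ntrk2 was the higher gene, 1.57-fold in replicate 1 and 1.60-fold in replicate 2 (log2 ratio 0.67 ± 0.02), and both genes were lower in replicate 2.

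The truncated form held most of the TPM assigned to Ntrk2. The truncated form stood at 13.48 TPM in replicate 1 and 12.06 TPM in replicate 2, against 9.55 and 6.88 TPM for the full-length form, a truncated share of 58.5% and 63.7% (61.1% ± 3.64, SD, n = 2). The assignment rested on 2068.44 and 2017.08 counts for the truncated form and 1791.56 and 1406.92 for the full-length form, with deposited posterior SDs of 33.91 and 29.77 counts. The truncated form was ahead in both libraries. The tables hold these 2 Ntrk2 transcripts and no other, so any other form of the gene would have been divided between them. In GENCODE M21 the transcripts share 1737 bases and have 7007 (full-length) and 5109 (truncated) bases of their own. By the coordinates above, the truncated form's own coding end lies before the next coding exon of the full-length form, and the same holds for Ntrk3. Reads of unspliced full-length RNA from that stretch could therefore be assigned to the truncated form. The posterior SDs do not cover this, and the part of such reads was not tested.

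Ntrk3 showed the opposite balance. Truncated Ntrk3 stood at 1.78 and 2.05 TPM, against a total of 11.3 and 9.06 TPM for the 3 full-length forms, a truncated share of 13.6% and 18.5% (16.0% ± 3.42, SD, n = 2). Its counts were 88.34 and 110.93, with posterior SDs of 21.97 and 16.4. The share depends on the transcript models. Truncated Ntrk3 has 2337 bases as quantified and 3977 in GENCODE M21, and the full-length form printed above has 3300 and 19703. What the longer models would do to the share was not tested. The truncated share of Ntrk2 was larger than that of Ntrk3 by 44.9 percentage points in replicate 1 and 45.2 in replicate 2 (45.1 ± 0.212), and the shares of the genes did not overlap. The plot of Trk transcripts shows this difference in the light blue and yellow segments.

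**Figure D3:**
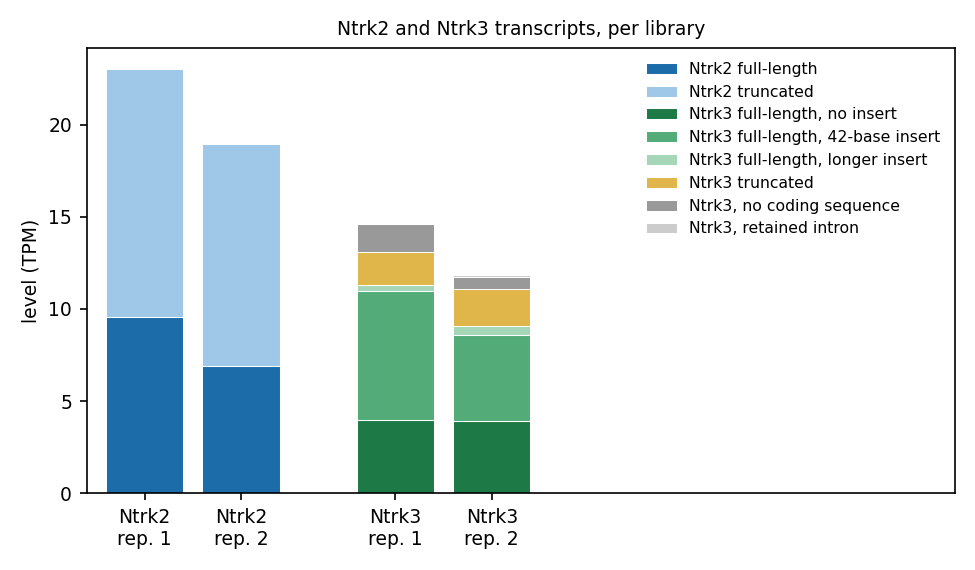
Level in TPM of each Ntrk2 and Ntrk3 transcript, stacked for each library (rep., replicate), with the truncated form in light blue for Ntrk2 and in yellow for Ntrk3. The truncated segment is 13.48 and 12.06 TPM of the Ntrk2 bars and 1.78 and 2.05 TPM of the Ntrk3 bars.

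Counting the kinase-containing forms alone put the genes in the other order, a comparison chosen after its values were seen. Full-length Ntrk3 stood at 10.2 ± 1.58 TPM and full-length Ntrk2 at 8.21 ± 1.89 TPM, means that differ by little more than their SDs. Within a library, full-length Ntrk2 was 0.845 times (replicate 1) and 0.759 times (replicate 2) the level of full-length Ntrk3, a log2 ratio of -0.32 ± 0.11. Among truncated forms Ntrk2 was 7.57-fold and 5.88-fold higher. The order of the full-length forms depends on the division by length: with counts as they stand the log2 ratio is 1.26. The transcript models also bear on it, since full-length Ntrk3 without an insert has 3300 bases in the tables and 19703 in GENCODE M21, against 8541 and 8744 for full-length Ntrk2.

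Full-length Ntrk3 comes with and without an insert in its kinase domain, and forms with an insert are known to signal less. The inserts are printed because they are all that separates these 3 transcripts within the coding sequence, and again lower case marks the 12 shared bases before them and capitals the insert.

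42-base insert of Ntrk3, ENSMUST00000193002 relative to ENSMUST00000039431, chr7:78204103-78204144, minus strand: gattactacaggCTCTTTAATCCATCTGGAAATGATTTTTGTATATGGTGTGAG

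75-base insert of Ntrk3, ENSMUST00000195262 relative to ENSMUST00000193002, chr7:78229487-78229561, minus strand: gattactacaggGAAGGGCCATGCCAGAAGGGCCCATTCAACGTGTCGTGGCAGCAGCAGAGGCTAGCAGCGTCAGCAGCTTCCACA

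The form without an insert (825 codons) stood at 3.97 and 3.90 TPM. The form with the 42-base insert (839 codons) stood at 6.98 and 4.71 TPM. The form with the further 75 bases (864 codons) stood at 0.35 and 0.45 TPM. Forms with an insert thus made up 64.9% and 57.0% of full-length Ntrk3 TPM (60.9% ± 5.6). This share is uncertain too, since the form with the 42-base insert has only those 42 bases that the form without it lacks. The form without an insert had 282.84 and 302.77 counts with posterior SDs of 34.3 and 31.3. Their lengths as quantified, 3300 bases without the insert and 2678 with the 42-base insert, also enter the share. The division between the 2 insert forms is weak: the longer form had 20.93 and 28.93 counts with posterior SDs of 60.99 and 46.38, and its posterior mean was 1.37 and 0.84 TPM. Of the remaining transcripts, 1 with 4 exons and no annotated coding sequence held 1.52 and 0.60 TPM.

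Ngfr, the p75 receptor (chromosome 11, 95568818 to 95587735, minus strand), has 1 transcript in the tables and stood at 5.31 TPM in replicate 1 and 6.16 TPM in replicate 2, or 5.73 ± 0.601 TPM, from 395 and 500 counts. Replicate 2 was the higher library. Ntrk2 exceeded Ngfr 4.34-fold in replicate 1 and 3.07-fold in replicate 2 (log2 ratio 1.87 ± 0.35).

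Gfra1, the co-receptor that binds GDNF (chromosome 19, 58235604 to 58455909, minus strand), stood at 12.73 TPM in replicate 1 and 12.23 TPM in replicate 2, or 12.5 ± 0.354 TPM, from 969.8 and 962.4 counts. The libraries were nearly equal. Short transcripts without a complete coding sequence held 26.0% and 28.1% of its TPM but 4.03% and 5.81% of its counts, since TPM divides by length. The transcripts with a complete coding sequence alone stood at 9.42 and 8.80 TPM. Exons of Gfra1 share 416 bases with the antisense gene Gm16277 (1.93 and 1.36 TPM), and reads from the shared bases cannot be told apart without strand.

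The complete Gfra1 transcripts differ by a 15-base cassette that the longer has and the shorter lacks, printed in capitals after 12 shared bases because it is their only coding difference.

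15-base cassette of Gfra1, ENSMUST00000026076 relative to ENSMUST00000129100, chr19:58392573-58392587, minus strand: cgttcatatcagATGTTTTCCAGCAAG

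Transcripts with the cassette made up 77.7% of complete Gfra1 TPM in replicate 1 and 68.5% in replicate 2 (73.1% ± 6.49). The main form with it held 710.49 and 584.69 counts and the form without it held 201.01 and 289.97. Their posterior SDs lay between 77.89 and 93.67 counts, so the difference between libraries is of the size of the uncertainty in assigning reads.

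Ret, the kinase that GDNF and GFRα1 engage (chromosome 6, 118151745 to 118197718, minus strand), was the lowest receptor at 0.35 TPM in each library, from 51 and 61 counts. The counting intervals were 0.261 to 0.46 TPM and 0.268 to 0.45 TPM. Its transcripts encode proteins that differ at the C-terminal tail, a long tail (ENSMUST00000032201, 1115 codons) and a short tail (ENSMUST00000088790, 1073 codons). The form with the short tail held 29.4 counts in replicate 1 and 61 in replicate 2, and the other held 21.6 and 0. The short tail was ahead in both, by less than the posterior SD of 9.73 counts in replicate 1.

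Each receptor was set against its ligand within a library. Ntrk2 exceeded Bdnf 22.6-fold in replicate 1 and 31.0-fold in replicate 2 (log2 ratio 4.73 ± 0.32, SD, n = 2). Ntrk3 exceeded Ntf3 9.42-fold and 4.52-fold (2.71 ± 0.75). The BDNF ratio was the larger of these in both libraries. Gfra1 exceeded Ret 36.4-fold and 34.9-fold (5.16 ± 0.04), the smallest spread of the receptor and ligand pairs apart from Ntrk2 over Ntrk3. Counting error was wider than this spread: the exact interval was 27.8 to 49.8 in replicate 1 and 27.2 to 46.4 in replicate 2. Against Gdnf, with 2 counts and 1 count, the ratio from counts per length was 482 for Gfra1 in replicate 1 (exact interval 133 to 3989) and 1011 in replicate 2 (181 to 39964). For Ret over Gdnf it was 13.1 (3.44 to 111) and 28.7 (4.97 to 1153). These intervals compare 2 genes within a library and cover counting error only.

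Bdnf and Ntf3 were the members that differed most between libraries, in opposite directions. Bdnf in replicate 2 was 0.598 times its level in replicate 1 (log2 -0.74, 95% interval of the ratio from counts 0.42 to 0.846), and Ntf3 was 1.67 times (log2 0.74, interval 1.15 to 2.45). They were the 2 of 7 members with a mean count of at least 10 that reached 1.5-fold either way, beside 8.75% of protein-coding genes with that count. Both had mean counts between 10 and 100, a class in which 36.7% of protein-coding genes reached 1.5-fold, and Ret, at a ratio of 1.00, was the third member in it. Gdnf had a mean count below 10 and was left out. The ratios of Ntrk2 (0.822), Ntrk3 (0.804), Ngfr (1.16) and Gfra1 (0.961) lay within 1.5-fold. The median log2 ratio of protein-coding genes was -0.11 in TPM and 0.00 under edgeR scaling, where the log2 ratios were -0.65 for Bdnf, 0.85 for Ntf3 and 0.26 for Ret.

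**Figure D4:**
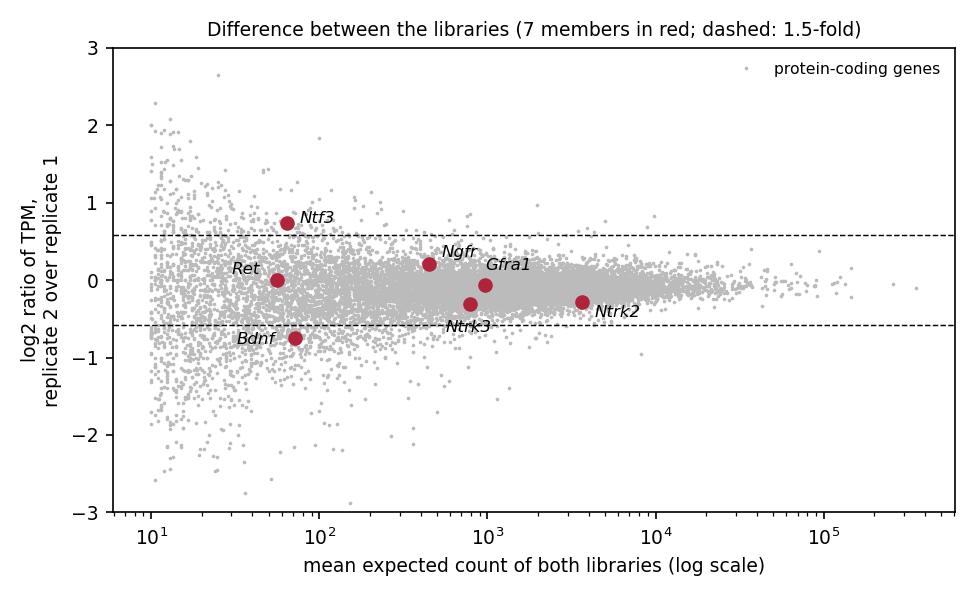
Log2 ratio of TPM, replicate 2 over replicate 1, against mean estimated count (log axis) for protein-coding genes with a mean count of at least 10 (grey) and the 7 members that reached it (red), with dashed lines at 1.5-fold and 23 genes outside the plotted range. Ntf3 lies above the upper line at 0.74, Bdnf lies below the lower line at -0.74, and the other 5 members lie between the lines.

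Some markers of other cell groups also differed between the libraries, and they are read beside the 8.75% of protein-coding genes that reached 1.5-fold. Cajal-Retzius genes had a summed level of 98.49 (replicate 1) and 78.77 TPM (replicate 2), with 4 of 5 at or above 1 TPM in both and none at a count of 0, and Lhx5 and Ebf3 (2 of 5) were more than 1.5-fold higher in replicate 1, as Bdnf was. Choroid plexus genes summed to 442.0 and 227.8 TPM, with 3 of 5 at or above 1 TPM and none at a count of 0, and 3 of 5 were more than 1.5-fold higher in replicate 1. Pallium genes summed to 292.9 and 412.4 TPM, and 1 of 5 reached 1.5-fold: Neurod6, a factor of young cortical neurons, at 145.44 and 257.32 TPM, higher in replicate 2 as Ntf3 was. Emx2, of the same list, was lower in replicate 2 at 31.26 and 24.46 TPM. Of the 6 genes of the medial ganglionic eminence and its interneurons, all at or above 1 TPM, Nkx2-1 and Lhx8 were over 1.5-fold higher in replicate 2, and the median log2 ratio was 0.21. Their sum was lower in replicate 2, at 267.9 and 220.7 TPM, and most of it was Sst (209.98 and 143.91 TPM). No gene of the subpallium, neuron, apical progenitor, endothelium, pericyte, astrocyte or microglia lists reached 1.5-fold. The part of these cell groups in the differences of Bdnf and Ntf3 was not tested.

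Ntf5 (neurotrophin-4), another ligand of TrkB, had 1 count in replicate 1 and 2 counts in replicate 2, or 0.02 and 0.04 TPM. As for Gdnf, a count of 0 would also allow these levels.

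Ret and Ngfr are also expressed in peripheral ganglia and nerves. Of the neural crest glia genes, Sox10 stood at 0.41 TPM in replicate 1 and 0.38 TPM in replicate 2, Erbb3 stood at 0.23 and 0.09 TPM, and Foxd3 was at a count of 0 in both. Of the ganglion genes, Th (8.35 and 6.61 TPM) and Pou4f1 (2.24 and 4.58 TPM), which brain neurons express as well, were above 1 TPM in both libraries. Prph stood at 1.01 and 0.77 TPM, Tlx3 at 0.13 and 0.06 TPM and Isl2 at 0.16 and 0 TPM. Pou4f1 was more than 1.5-fold higher in replicate 2 and Erbb3 in replicate 1. The part of such cells in the levels of Ret and Ngfr was not tested.

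Among the other ligands of the GDNF family, Nrtn (neurturin) led with 1.46 TPM in replicate 1 and 1.38 TPM in replicate 2, from 30 and 31 counts. Artn (artemin) stood at 0.18 and 0.26 TPM, and Pspn (persephin) had 3 counts and 1 count. The level of Nrtn exceeded that of Gdnf in both libraries, while the 4 ligands together came to 2.03 and 1.76 TPM.

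Of the other co-receptors, Gfra2, the neurturin receptor, stood at 1.73 and 1.35 TPM, and Gfra3, the artemin receptor, at 0.10 and 0.11 TPM. Gfra4, the persephin receptor, was listed at 12.47 and 8.87 TPM, near the level of Gfra1 in replicate 1. Of that TPM, 95.8% and 91.5% lay on 2 transcripts annotated as retained introns, and its protein-coding transcripts held 0.52 and 0.75 TPM from 8.3 and 24.19 counts. Gfra1 by contrast had no transcript of that class. Gfral, the receptor of GDF15, was at a count of 0, which allows a level of up to 0.0727 and 0.0667 TPM. Ncam1, the Ret-independent partner of GFRα1, was the highest gene of either family at 160.42 and 148.58 TPM.

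All 5 genes of the sortilin family stood above 1 TPM. Some members of this family are receptors for precursor neurotrophins together with p75, and some are sorters of Trk receptors. Sort1 (sortilin) was at 12.21 and 11.31 TPM and Sorl1 at 8.17 and 9.52 TPM. Sorcs1 (6.49 and 4.61 TPM), Sorcs2 (7.02 and 5.29 TPM) and Sorcs3 (4.20 and 2.91 TPM) were all lower in replicate 2. Transcripts annotated as retained introns held 25.2% and 30.1% of the TPM of Sorl1 and 15.6% and 11.6% of that of Sort1. For Sorcs2 they held 15.3% and 14.2%, and Sorcs1 and Sorcs3 had none. Sort1 exceeded Ngfr in both libraries, also with its protein-coding transcripts alone (10.3 and 10.0 TPM).

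**Figure D5:**
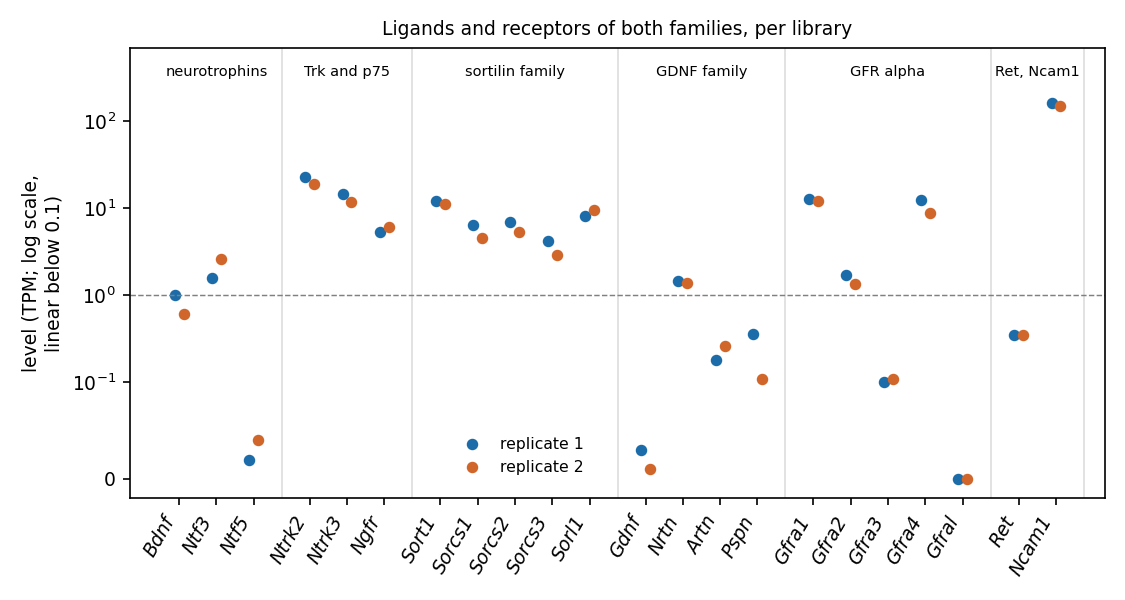
Level in TPM of ligands and receptors of both families in replicate 1 (blue) and replicate 2 (orange), on an axis that is logarithmic above 0.1 TPM and linear below it, with a dashed line at 1 TPM. Ntf3 and Nrtn are the ligands above the line in both libraries, and Ncam1 is the highest receptor at 160.42 and 148.58 TPM.

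Genes that work with the receptors are given by list, beside 59.0% of protein-coding genes at or above 1 TPM in both libraries and 8.75% that reached 1.5-fold between them. Many tissues express these genes, so the counts are a description. Of 10 genes that process or release neurotrophins, 8 were at or above 1 TPM in both libraries, with a median of 6.57 and 5.22 TPM. Cpe, carboxypeptidase E, led with 301.56 and 284.94 TPM, ahead of Plat, which encodes tissue plasminogen activator (27.86 and 26.24 TPM), and the granule protein gene Scg2 (25.20 and 17.64 TPM). Plau was lowest at 0.30 and 0.24 TPM. Cadps2, a factor for release of dense-core vesicles, was the 1 gene of 10 to reach 1.5-fold between libraries, at 4.14 and 2.65 TPM.

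Trk adaptors and effectors were above 1 TPM in 15 of 15 cases, with a median of 15.1 and 13.1 TPM. The adaptor Grb2 led at 110.63 and 108.96 TPM, followed by Crkl at 59.11 and 58.30 TPM and the phospholipase Plcg1 at 58.57 and 54.06 TPM, and Shc3 was lowest at 2.10 and 2.55 TPM. Partners of p75 were above 1 TPM in 14 of 14 cases, with a median of 28.1 and 27.8 TPM. Maged1 (NRAGE) stood at 788.28 and 692.38 TPM, Bex3 (NADE) at 547.28 and 541.69 TPM, Arhgdia, whose product binds p75, at 427.37 and 379.08 TPM, and the lowest, Ripk2, at 3.05 and 2.87 TPM. No gene of either list reached 1.5-fold between libraries.

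Of 8 Ret adaptors, 7 were at or above 1 TPM, with a median of 16.7 and 14.8 TPM. The imprinted adaptor gene Grb10 led at 156.65 and 133.91 TPM, followed by Dok4 at 31.05 and 29.48 TPM and the kinase Src at 29.51 and 23.78 TPM, and Grb7 was lowest at 0.31 and 0.17 TPM. Most of these adaptors serve other receptors as well.

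Genes that growth factors and neuronal activity induce had lower medians than these lists. Of 13 early and feedback targets, 9 were at or above 1 TPM in both libraries, with a median of 2.20 and 1.89 TPM. The feedback inhibitors Spry2 (18.03 and 22.52 TPM) and Dusp6 (20.11 and 19.46 TPM) and the ETS factor Etv5 (12.65 and 11.88 TPM) led, and the early gene Egr2 was lowest at 0.09 and 0.06 TPM. Fos, Vgf and Npas4 were also below 1 TPM in at least 1 library. None of the 11 targets with a mean count of at least 10 reached 1.5-fold between libraries, beside 8.75% of protein-coding genes.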

How the data were processed

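Per the labels' protocols, mirVana extraction was used and a low-input SMARTer manual is linked. The tables were made on mm10 with GENCODE M4, per the metadata deposited with them; the sources used here name no aligner, quantifier version or strand. The authors' columns follow RSEM's layout, per the file headers. The deposited expected counts are estimates in which shared reads are divided between transcripts, the deposited TPM and FPKM values are scaled by length and depth, and the deposited percent values are isoform shares within a gene. The deposited posterior SDs of counts are also the authors'.

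Gene symbols, classes, coordinates and sequences came from GENCODE M21 (GRCm38), which matched 42462 of 43346 mouse gene rows by identifier. Transcript lengths differ between M4 and M21 for some forms. Rows that are no mouse gene held 1.9% and 2.65% of counts. A full-length form ends at the stop codon of the longest coding transcript, and a truncated form shares its start codon and ends elsewhere.

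Shares and ratios were computed from TPM in each library. A library ratio was called at 1.5-fold with a mean count of at least 10, over all protein-coding genes. No test between groups or libraries was run, since the smallest p of a sign test with n = 2 is 0.5 (exact, two-sided). The members and lists were chosen with earlier results of these data known. Named were all members and the other family genes (a few of these are not reported here), the 3 highest and 1 lowest gene of each list and called genes; of the marker lists only those beside a result are named, and Fos, Vgf, Npas4, Emx2, Sst and the ganglion and crest genes were picked with their values in view. Counts were rounded for scaling by edgeR 4.0.16 and DESeq2 1.42.0 in R 4.3.3. The remaining software was scipy 1.17.1, numpy 2.4.6, pandas 2.3.3 and matplotlib 3.10.9 under Python 3.11.15. Alternatives were other thresholds, pseudocounts, scalings and estimates and leaving out each library; complete coding transcripts alone, the class of 10 to 100 counts and the full-length and truncated ratios were added after the data were seen.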

Additional observations from a re-analysis of the deposited data

How the results depend on the processing

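The number of members at or above 1 TPM was 5 and ranged from 4 (a threshold of 2 TPM, or FPKM) to 6 (0.5 TPM, or without replicate 2). The number that reached 1.5-fold between libraries was 2 under edgeR or DESeq2 scaling and 0 with a pseudocount of 1, a fold of 2 or a count minimum of 100; with no count minimum it was 3, Gdnf being added with 2 counts and 1 count. With counts not divided by length the truncated share of Ntrk2 was 56.2%, and the log2 ratio was 5.69 for Ntrk2 over Bdnf, 3.67 for Ntrk3 over Ntf3, 3.03 for Ntrk2 over Ngfr, 2.20 for Ntrk2 over Ntrk3 and 4.11 for Gfra1 over Ret. In that setting, which removes the length correction by construction, the log2 ratio of truncated Ntrk2 over Ntrk3 was 4.37 and that of full-length forms turned from -0.32 to 1.26. With complete coding transcripts alone Ntrk2 over Ntrk3 was 0.79 and Gfra1 over Ret 4.70. Gfra1 over Ret was 5.24 with posterior means and 4.80 with a pseudocount of 0.1, which also gave 6.72 for Gfra1 over Gdnf and 1.91 for Ret over Gdnf. Truncated shares ranged from 58.5% to 63.7% for Ntrk2 and from 13.6% to 18.5% for Ntrk3 without 1 library. No paired analysis was possible because there is 1 group. With 2 libraries the SD is itself poorly known, and the transcript splits of Bdnf and Ret rest on fewer than 100 counts.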
